A study of Mus musculus with 6 samples.

Results

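Expression of 10 genes of the ATF4 and unfolded protein response programmes was examined in mouse GC-2spd cells with and without PM2.5 exposure. The genes were taken by symbol from the 54886 genes listed in every library. The integrated stress arm held 7 genes (Atf4, Ddit3, Trib3, Asns, Chac1, Atf3 and Ppp1r15a), and the ER chaperone arm held 3 (Hspa5, Xbp1 and Dnajb9). All 10 had a mean of at least 1 FPKM, fragments per kilobase of exon scaled to sequencing depth, and so entered the tests. Ddit3 is carried by 2 of the 11 gene IDs with these symbols, and the second one (ENSMUSG00000116429) had 0 reads in every library and was left aside.

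GC-2spd is an immortalised mouse line that the labels describe as spermatocyte-derived, of BALB/c background. The control group (3 libraries) was grown for 48 h in normal medium with PM2.5 at 0 μg/mL, and the PM2.5 group (3 libraries) received fine particulate matter at 100 μg/mL for the same time. Nothing in the labels says whether the replicates came from separate cultures, so a p-value measures the spread between these libraries only. Total RNA was sequenced as read pairs, and between 16209340 and 18003193 reads per library could be recovered from the deposited values.

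The spermatocyte origin was checked against 10 germ cell markers, among them Sycp1, Sycp3, Ddx4 and Dazl. None of the 10 reached a mean of 1 FPKM, and Dazl, Spo11, Hormad1 and Mael had 0 reads in every library. Their summed level lay between 0.466 and 2.56 FPKM across the control group and between 0.0416 and 0.612 after exposure. Of 7 peritubular and fibroblast markers, 5 passed the same limit (Acta2, Col1a1, Col1a2, Col3a1 and Pdgfra). The sum of that list was 686 to 765 FPKM across the control group, against 389 to 650 after exposure. Its low end came from PM2.5 replicate 3, where Col1a1 had 193 FPKM, against 435 and 437 in PM2.5 replicates 1 and 2. Col1a1 had 412, 452 and 425 FPKM in control replicates 1, 2 and 3. Without control replicate 2, 1 of the 5 genes was higher after exposure (Acta2, 1.39 times) and 4 were lower. The part of this list in the results below was not tested. In bulk RNA fewer cells of a type and less RNA per cell cannot be told apart. Of the Sertoli, Leydig and macrophage markers, Gata4 (of 6), Star (of 6) and Cd68 (of 4) passed the limit. The summed levels of these lists in control and PM2.5 libraries were 18.0 to 19.2 and 12.3 to 23.7 FPKM for Sertoli cells, 2.01 to 2.59 and 1.74 to 1.89 for Leydig cells, and 0.795 to 15.5 and 1.10 to 1.87 for macrophages. The highest macrophage sum, 15.5, came from Cd68 in control replicate 2.

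Protein synthesis is slowed when kinases phosphorylate the initiation factor eIF2, and the same event lets ribosomes translate the transcription factor ATF4, whose targets supply amino acids and, under lasting stress, favour cell death. This is the integrated stress response. The unfolded protein response starts at the endoplasmic reticulum (ER), where the sensors PERK, IRE1 and ATF6 react to misfolded proteins. PERK feeds into ATF4, whereas IRE1, through spliced XBP1, and ATF6 mainly raise chaperones and degradation factors. ATF4 is controlled strongly at translation and XBP1 by splicing, so a transcript level per gene reads only a part of either pathway.

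A pair of libraries stood apart. Control replicate 2 correlated with the other 5 libraries at Pearson's r of 0.732 to 0.779 across 11884 genes, while the other pairs ranged from 0.950 to 0.992. Mitochondrial genes took 14.5% of its reads against 1.65% to 1.95% elsewhere. Its difference from control replicates 1 and 3 went with GC content (Spearman's rho 0.338 across 11735 genes) and inversely with exon length (rho -0.30). PM2.5 replicate 3 differed from PM2.5 replicates 1 and 2 along GC content (rho -0.714). Genes are not independent replicates, and these correlations are descriptions. Counts of called genes and list medians are therefore given with all 6 libraries and without control replicate 2. Log2 fold changes of single pathway genes are mostly given without control replicate 2 only, and those with all 6 libraries can differ widely. Where it mattered, values without PM2.5 replicate 3 are given as well.

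The promoters of the 10 genes were read from the RefSeq table for GRCm38.p6, from 250 bases before to 50 bases after the annotated start, and all 10 were matched. They were searched on both strands for the elements by which these programmes are known to act. The core of the CEBP-ATF element, the site of ATF4 with its partners, was written as TGATGNAA. The ER stress element, bound by ATF6 with NF-Y, was written as CCAAT and CCACG with 9 bases between them, and the unfolded protein response element of spliced XBP1 as TGACGTGG. The search does not cover variant letters or sites outside the window, so a promoter without a match may still hold such an element. The stretches with a match are shown 5′ to 3′ on the strand of the gene, and capitals mark the match.
Chac1, chr2:119351019-119351086, plus strand: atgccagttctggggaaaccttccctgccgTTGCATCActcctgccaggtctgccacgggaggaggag
Atf3, chr1:191183406-191183473, minus strand: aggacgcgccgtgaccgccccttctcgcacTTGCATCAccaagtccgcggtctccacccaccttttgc
Asns, chr6:7693210-7693277, minus strand: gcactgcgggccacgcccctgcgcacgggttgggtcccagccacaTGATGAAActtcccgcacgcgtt
Trib3, chr2:152344028-152344057, minus strand: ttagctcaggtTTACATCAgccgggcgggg
Hspa5, chr2:34771995-34772073, plus strand: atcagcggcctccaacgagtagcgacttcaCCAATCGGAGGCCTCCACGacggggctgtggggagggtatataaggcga

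The CEBP-ATF core was found in 4 of the 7 integrated stress promoters and in 0 of the 3 ER chaperone promoters. It lay at bases -193 to -186 in Chac1 and -110 to -103 in Atf3, both on the reverse strand with the same letters, at -23 to -16 in Asns on the forward strand, and at 15 to 22 after the RefSeq start in Trib3 on the reverse strand. In the GENCODE M21 annotation Trib3 starts at chr2:152344032 on the minus strand, and by that start its match lies upstream. Among all 32851 promoters of the table, 1304 (3.97%) held the CEBP-ATF core. The ER stress element was found in Hspa5, at -65 to -47, and 39 promoters of the table (0.119%) held it. The unfolded protein response element was in none of the 10 windows and in 222 of all (0.676%). The windows of Atf4, Ddit3, Ppp1r15a, Xbp1 and Dnajb9 held none of these exact letters. A match is a description of the sequence and no site of binding was measured.

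**Figure D1:**
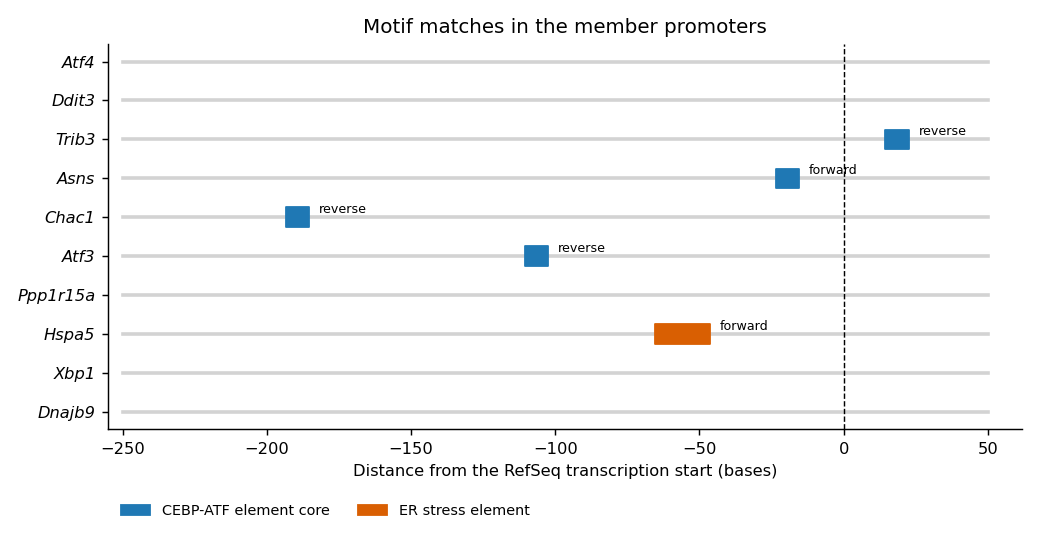
Matches to 2 elements in the promoters of the 10 genes, drawn by distance in bases from the RefSeq transcription start (dashed line), with the strand of each match beside it. Blue boxes are the CEBP-ATF core, seen in Trib3, Asns, Chac1 and Atf3, and the orange box is the ER stress element, seen in Hspa5.

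Atf4 (ENSMUSG00000042406, chr15:80255184-80257541 in GENCODE M21 on GRCm38) encodes the transcription factor at the centre of the integrated stress response. Its level was 64.9, 630.2 and 67.0 FPKM in control replicates 1, 2 and 3, and 139.6, 136 and 71.5 FPKM in PM2.5 replicates 1, 2 and 3, the order used for every gene. Control replicate 2 was the highest library by far and made the groups overlap. PM2.5 replicates 1 and 2 lay at 2.12 and 2.06 times the mean of control replicates 1 and 3, and PM2.5 replicate 3 at 1.08 times. The mean was 254 ± 326 FPKM in the control group and 116 ± 38.2 in the PM2.5 group (SD, n = 3 each), and 66.0 ± 1.48 in the control group without replicate 2 (n = 2).

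The transcription factors downstream of ATF4 had the same high library. Ddit3 (ENSMUSG00000025408, chr10:127290774-127296288), which encodes the pro-apoptotic factor CHOP, had 7.96, 27.1 and 6.99 FPKM across the control group, against 9.67, 8.59 and 10.3 after exposure. Atf3 (ENSMUSG00000026628, chr1:191170296-191218039), a stress-induced factor, had 2.30, 5.80 and 2.70 FPKM against 3.40, 2.98 and 3.01. In both genes control replicate 2 was the highest of all 6 libraries, and the 3 PM2.5 libraries lay above control replicates 1 and 3. Ddit3 overlaps Mars and Gm4189 on the opposite strand, Atf3 holds the small gene Gm24748, and 6.78% of the 31-base words of Ddit3 also occur under another gene ID. The second Ddit3 ID overlaps it on the same strand, and 100% of that ID's 75 words occur under another ID. Whether counting used strand is not given in the sources used here, so the antisense partners may affect the reads of Ddit3, in a direction not known.

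Feedback and effector genes differed among themselves. Ppp1r15a (ENSMUSG00000040435, chr7:45522916-45526268) encodes GADD34, the phosphatase subunit that reverses eIF2 phosphorylation, and had 8.77, 48.4 and 8.86 FPKM across the control group, against 12.2, 10.6 and 10.4 after exposure. It overlaps Tulp2 on the opposite strand, so its reads carry the same doubt. Trib3 (ENSMUSG00000032715, chr2:152337422-152344032) encodes a pseudokinase that restrains ATF4 and AKT, and had 5.17, 8.63 and 4.44 FPKM against 10.2, 9.26 and 7.42. Here control replicate 2 lay within the range of the PM2.5 libraries rather than above it. Chac1 (ENSMUSG00000027313, chr2:119351229-119354381) encodes an enzyme that degrades glutathione, and had 3.62, 5.51 and 3.90 FPKM against 9.30, 7.85 and 4.06. As in Atf4, PM2.5 replicates 1 and 2 were high (2.47 and 2.09 times the mean of control replicates 1 and 3) and PM2.5 replicate 3 was at 1.08 times.

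Asns (ENSMUSG00000029752, chr6:7675169-7693254), the enzyme of asparagine synthesis, had another order. Its level was 31.9, 14.2 and 34.1 FPKM across the control group, against 42.3, 40.9 and 58.8 after exposure. Control replicate 2 was the lowest library and PM2.5 replicate 3 the highest, and the groups did not overlap. The groups did not overlap, with all 6 libraries, in 1 of the 7 integrated stress genes (Asns) and 2 of the 3 ER chaperone genes (Hspa5 and Xbp1), in each case with PM2.5 above control. Among all 11884 genes tested, 8.35% had every PM2.5 library above every control library and 6.85% had every one below.

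The ER chaperone arm shared the order of Asns in control replicate 2. Hspa5 (ENSMUSG00000026864, chr2:34771970-34777547) encodes BiP, the main chaperone of the ER and a brake on its sensors, and had 252, 117 and 239.9 FPKM across the control group, against 291, 299 and 401 after exposure. Xbp1 (ENSMUSG00000020484, chr11:5520659-5525893), the transcription factor of the IRE1 branch, had 35.4, 18.1 and 35.9 FPKM against 37.0, 39.6 and 45.4. In both genes control replicate 2 was lowest, PM2.5 replicate 3 was highest and no library of one group lay within the other. Dnajb9 (ENSMUSG00000014905, chr12:44205559-44210326) encodes an ER co-chaperone of BiP, and had 13.7, 6.02 and 14.8 FPKM against 9.79, 10.7 and 18.3. Its PM2.5 replicates 1 and 2 lay below control replicates 1 and 3, and only PM2.5 replicate 3 lay above them. For Dnajb9, 10.8% of the 31-base words occur in another gene, and Mir5627 lies within it on the other strand. Spliced and unspliced Xbp1 are 1 value here.

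**Figure D2:**
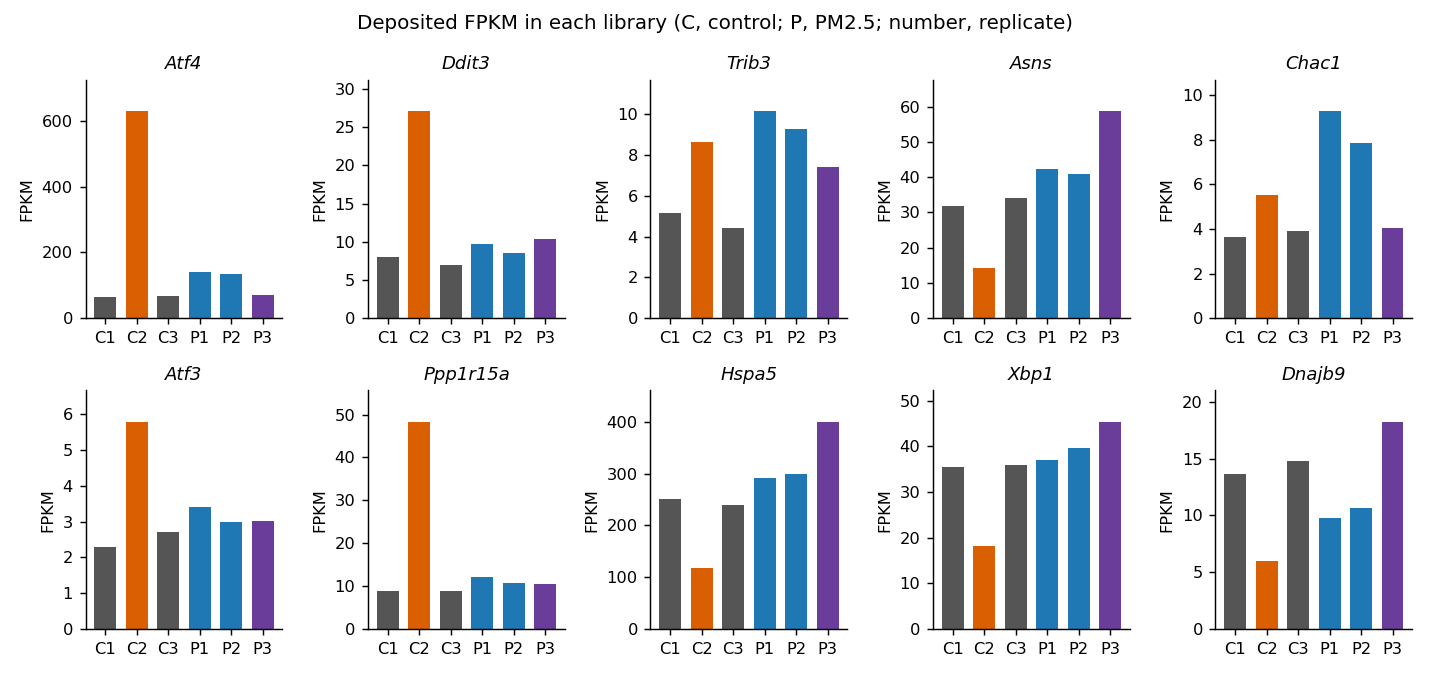
FPKM of each of the 10 genes (vertical axis, from 0) in the 6 libraries, with control replicates C1 and C3 in grey, control replicate C2 in orange, PM2.5 replicates P1 and P2 in blue and P3 in purple. C2 is the highest bar in Atf4, Ddit3, Atf3 and Ppp1r15a and the lowest in Asns, Hspa5, Xbp1 and Dnajb9, and P3 falls to the level of C1 and C3 in Atf4 and Chac1.

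Within the control group the medians of both arms moved apart, but Asns, an integrated stress gene, went with the ER chaperone genes. On the log2(FPKM + 1) scale, control replicate 2 differed from the mean of control replicates 1 and 3 by 3.24 in Atf4, 2.33 in Ppp1r15a and 1.73 in Ddit3. These differences lay at the 98.6th, 95.4th and 90.6th percentile of all genes tested in that library. Atf3, Trib3 and Chac1 differed by 0.96, 0.73 and 0.45, at the 78.7th, 74.0th and 66.6th percentile. In the same library Asns differed by -1.16, Dnajb9 by -1.12, Hspa5 by -1.06 and Xbp1 by -0.94, at the 16.6th, 17.5th, 18.7th and 22.2nd percentile. The median difference was 0.96 over the integrated stress genes, -1.06 over the ER chaperone genes and -0.072 over all genes tested. In PM2.5 replicates 1, 2 and 3 the median was 0.42, 0.30 and 0.22 for the integrated stress arm, and 0.053, 0.15 and 0.34 for the ER chaperone arm. Among the PM2.5 libraries the first arm was thus lowest and the second highest in replicate 3, the library that stood apart along GC content.

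**Figure D3:**
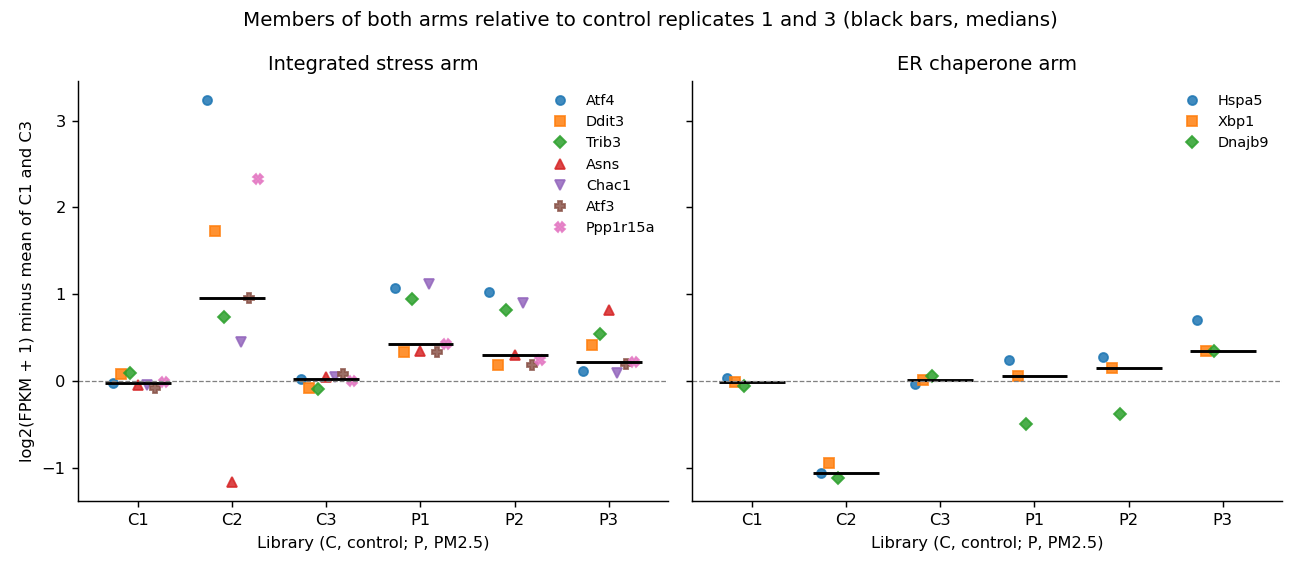
Difference of each gene from the mean of control replicates C1 and C3, in log2(FPKM + 1) (vertical axis), in each of the 6 libraries (horizontal axis), for both arms. Points are genes and black bars are medians: in C2 the integrated stress median is 0.96 and the ER chaperone median -1.06, while in P1 to P3 the medians lie between 0.22 and 0.42 and between 0.053 and 0.34.

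The comparison of the PM2.5 group with the control group asked which stress genes the exposure changed. With all 6 libraries, limma called 0 of the 10 genes at an adjusted p under 0.05 (Benjamini-Hochberg over all genes), and 0 had an unadjusted p under 0.05. A voom fit in limma on the recovered reads also called 0. The background was 0.0926% of all 11884 genes called (11 genes), and 1.92% higher in the PM2.5 group at an unadjusted p under 0.05. The integrated stress genes had a median log2 fold change of -0.081 (3 of 7 higher), the ER chaperone genes of 0.49 (3 of 3 higher), and all genes tested of 0.020. The sign of the first median turned to 0.031 when libraries were scaled to total reads, below the median of all genes under that scaling (0.13), and to 0.055 with quantile normalization. Single values with limma were Atf4 at -0.34 ± 0.93 (SE, adjusted p = 0.917), Asns at 0.88 ± 0.38 (adjusted p = 0.875) and Hspa5 at 0.76 ± 0.38 (adjusted p = 0.875). The interval of Atf4 ran from -2.62 to 1.93, so neither a rise nor a fall of several times could be told from no change. In two-sided exact permutation tests of single genes the design cannot go below p = 0.1, which Asns, Hspa5 and Xbp1 reached.

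Without control replicate 2 all 7 integrated stress genes were higher in the PM2.5 libraries, and none was called. The log2 fold change was 0.77 ± 0.15 for Trib3 (SE, adjusted p = 0.117, limma), 0.74 ± 0.32 for Atf4 (adjusted p = 0.354), 0.70 ± 0.32 for Chac1 (adjusted p = 0.373) and 0.49 ± 0.18 for Asns (adjusted p = 0.300). Ddit3 stood at 0.31 ± 0.12, Ppp1r15a at 0.29 ± 0.10 and Atf3 at 0.24 ± 0.11, with adjusted p-values of 0.301, 0.279 and 0.370. The median of the arm was 0.49 against -0.011 for all 11597 genes tested. In the ER chaperone arm, with a median of 0.18, Hspa5 was at 0.41 ± 0.17 and Xbp1 at 0.18 ± 0.12, while Dnajb9 was at -0.18 ± 0.27 (adjusted p of 0.336, 0.504 and 0.778). By level, Trib3 had 4.80 ± 0.520 FPKM in the 2 remaining controls and 8.95 ± 1.40 in the PM2.5 group (SD, n = 3), 1.86 times as much, and Hspa5 246 ± 8.26 against 330.3 ± 60.9, 1.34 times.

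At this setting limma called 0 of the 10 genes and voom 0, where 1.03% of all genes were called. An unadjusted p under 0.05 with a higher level was found for 4 of the 10 (Trib3, Ppp1r15a, Asns and Ddit3), against 8.32% of all genes. Every PM2.5 library lay above both controls in 9 of the 10, Dnajb9 being the exception, against 17.8% of all genes, while 19.8% of all genes had every PM2.5 library below. The two-sided exact permutation test used here doubles the smaller tail. For 3 against 2 libraries it can then give no p below 0.2, and the same 9 genes had that value.

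**Figure D4:**
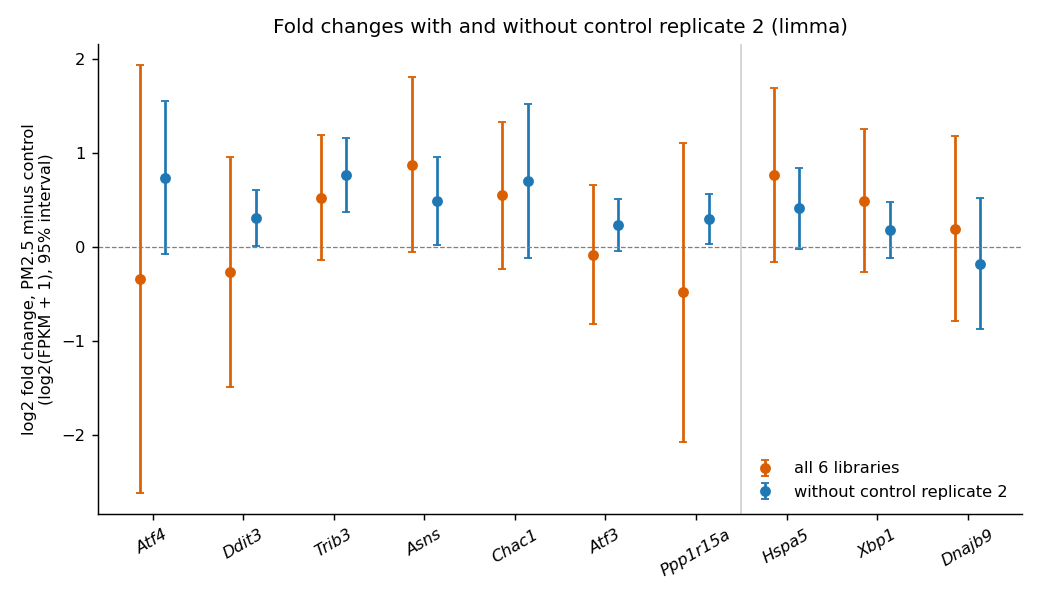
Log2 fold change of the PM2.5 group over the control group on the log2(FPKM + 1) scale (vertical axis) for each gene, with 95% intervals from limma. Orange points use all 6 libraries and blue points leave out control replicate 2: Atf4 goes from -0.34 to 0.74 and Dnajb9 from 0.19 to -0.18, and the interval narrows in every gene but Chac1.

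Base composition moved with these values. The difference of PM2.5 replicates 1 and 2 from control replicates 1 and 3 correlated positively with GC content across 11735 genes (Spearman's rho 0.547 and 0.488), and that of PM2.5 replicate 3 negatively (rho -0.378). Transcript GC content was 55.5% for Atf4, 57.4% for Chac1 and 58.2% for Trib3, but 45.6% for Hspa5 and 40.6% for Dnajb9, around a median of 49.5% over the genes tested. After each library was corrected for GC content and exon length, an alternative chosen after seeing the data, the log2 fold change was 0.63 ± 0.095 for Trib3 (SE, limma, adjusted p = 0.0273) and 0.46 ± 0.091 for Hspa5 (adjusted p = 0.0475). These 2 of the 10 genes were then called, where 7.38% of all genes were. With the replicate block added to the same correction both calls were lost (adjusted p = 0.182 for Trib3 and 0.263 for Hspa5). Over all 16 alternatives the adjusted p of Trib3 ran from 0.00132 to 0.795 and that of Hspa5 from 0.00990 to 0.959.

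The corrected values of Atf4 were 0.86, 0.84 and 0.19 above the mean of control replicates 1 and 3 in PM2.5 replicates 1, 2 and 3, compared with 1.07, 1.03 and 0.11 before correction. Those of Chac1 were 0.82, 0.63 and 0.21, compared with 1.11, 0.90 and 0.088. PM2.5 replicate 3 stayed the lowest of the 3 in both genes after this correction. Hspa5 had 0.40, 0.39 and 0.59, with PM2.5 replicate 3 still the highest. Dnajb9 had -0.21, -0.16 and 0.15. In other genes the order of the PM2.5 libraries turned. Trib3 went from 0.95, 0.82 and 0.54 to 0.63, 0.54 and 0.71, and Ppp1r15a from 0.42, 0.24 and 0.22 to 0.21, 0.062 and 0.32, so that replicate 3 went from lowest to highest in both. Ddit3 went from 0.33, 0.18 and 0.42 to 0.46, 0.25 and 0.22, with replicate 3 going from highest to lowest. Xbp1 had -0.056, 0.058 and 0.36 after correction, and its groups then overlapped. The part of the remaining GC or library differences in these values was not tested.

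Leaving out PM2.5 replicate 3 as well left 2 libraries against 2. Then 7 of the 10 genes were called with limma, where 48.1% of all genes were. Atf4 was at 1.05 ± 0.047 (SE, adjusted p = 0.000257), Chac1 at 1.01 ± 0.093, Trib3 at 0.89 ± 0.088, Ppp1r15a at 0.33 ± 0.076, Asns at 0.33 ± 0.053 and Hspa5 at 0.26 ± 0.052. Dnajb9 was lower, at -0.44 ± 0.069 (adjusted p = 0.00485). The libraries that remain are those that correlated most closely within each group, and the count of 7 is read against that share of all genes. PM2.5 replicate 3 decided the size of Atf4 and Chac1: without it they were at 1.05 and 1.01, and with it at 0.74 and 0.70.

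The genes also fell into patterns over the 5 libraries without control replicate 2, given as a description since the libraries share their controls and GC differences. Pearson's r on log2(FPKM + 1) was 0.993 between Atf4 and Chac1 and 0.891 between Atf4 and Trib3. Asns, an ATF4 target, was closer to Hspa5 (r = 0.978) and Xbp1 (r = 0.951) than to Atf4 (r = 0.175). Dnajb9 ran against Atf4 (r = -0.857) and was only loosely tied to Hspa5 (r = 0.357). Over all 6 libraries Atf4 was close to Ppp1r15a (r = 0.962), Atf3 (r = 0.962) and Ddit3 (r = 0.925), with control replicate 2 as the extreme point.

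Of all genes tested, those closest to Atf4 in level over the 5 libraries were Rpl28, Ifi30 and Fkbp2 (r = 0.9996, 0.9996 and 0.9995), and over all 6 libraries Fkbp2, Sorbs3 and Puf60 (r = 0.9998, 0.9995 and 0.9993). Fkbp2, an ER prolyl isomerase, had 31.9, 1020.2 and 32.7 FPKM across the control group, against 100.2, 94.7 and 38.0 after exposure. Rpl28, a ribosomal protein gene, had 48.3, 1259 and 51.5 against 177, 172 and 59.4. Both were chosen for their likeness to Atf4 and so share its order, with control replicate 2 far above and PM2.5 replicate 3 near control replicates 1 and 3. As the highest of all genes tested over 5 or 6 libraries, these values of r are a description only. The genes closest to Hspa5 were Ahnak, Dixdc1 and Rexo2 over 5 libraries (r = 0.9996, 0.9986 and 0.9986) and Ahnak, Glrx3 and Nabp1 over 6 (r = 0.9996, 0.998 and 0.998). Ahnak had 29.2, 20.2 and 28.4 FPKM against 31.4, 32.1 and 37.0.

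The wider pathways were described with lists of genes written by function. With all 6 libraries none of their genes was called. Of the eIF2 kinases, eIF2 subunits and exchange factor, 12 were tested and 7 were higher, both with all libraries (median log2 fold change 0.15) and without control replicate 2 (0.066). PERK (Eif2ak3) was at -0.08 ± 0.10 without control replicate 2 (SE, adjusted p = 0.707), GCN2 (Eif2ak4) at -0.16 ± 0.10 (adjusted p = 0.479) and HRI (Eif2ak1) at -0.03 ± 0.10 (adjusted p = 0.882). Eif2ak2, which encodes PKR, the kinase that senses double-stranded RNA, had 53.8, 27.3 and 48.8 FPKM across the control group, against 20.9, 22.1 and 23.2 after exposure. Every PM2.5 library was below every control library, with control replicate 2 the closest. Without that library Eif2ak2 fell by 1.18 on the log2 scale (± 0.10, limma, adjusted p = 0.0176), and with it the difference was -0.89 ± 0.29 (adjusted p = 0.875). The call was also lost on leaving out control replicate 1 (adjusted p = 0.362), control replicate 3 (0.233), PM2.5 replicate 1 (0.0856) or PM2.5 replicate 2 (0.139), with log2 fold changes between -1.25 and -1.11, and on GC content and length correction with the replicate block (0.0633). Of all genes tested without control replicate 2, 1.03% were called.

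Among partners of ATF4 and other stress targets, 9 of 12 were tested, with 3 higher with all libraries (median -0.040) and 4 higher without control replicate 2 (median -0.11). The partner gene Cebpg was at -0.11 ± 0.15 (SE, adjusted p = 0.749, limma, without control replicate 2). Cebpb, another bZIP partner, had 19.4, 160.1 and 19.7 FPKM across the control group, against 76.2, 77.3 and 17.0 after exposure, and Atf5, a related factor, 14.7, 63.6 and 16.3 against 32.9, 30.2 and 12.2. As in Atf4, control replicate 2 was highest, followed by PM2.5 replicates 1 and 2, but PM2.5 replicate 3 lay below control replicates 1 and 3. Neither passed the test (adjusted p of 0.460 and 0.580).

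Genes of amino acid supply leaned towards higher levels without a call. In serine, proline and one-carbon synthesis 10 of 11 were higher with all libraries (median 0.26) and 9 of 11 without control replicate 2 (median 0.11). Phgdh, the first enzyme of serine synthesis, was at 0.59 ± 0.20 (SE, adjusted p = 0.267, limma, without control replicate 2), Psat1 at 0.06 ± 0.11 (adjusted p = 0.818) and the mitochondrial folate enzyme Mthfd2 at 0.18 ± 0.12 (adjusted p = 0.509). Of 9 amino acid transporters 8 were tested, and 6 were higher in both comparisons (medians 0.41 and 0.22). Slc7a11, the cystine transporter, had 0.867, 0.144 and 0.821 FPKM against 1.66, 1.65 and 1.97, with no overlap. With all libraries Slc7a11 was at 0.81 ± 0.26 (adjusted p = 0.875), and without control replicate 2 at 0.58 ± 0.11 (adjusted p = 0.111). Its partner chain Slc3a2 was at 0.61 ± 0.20 (adjusted p = 0.248) and Slc7a5 at -0.05 ± 0.14 (adjusted p = 0.867), both without control replicate 2. With all libraries Slc3a2 was at 0.24 ± 0.37 and Slc7a5 at 0.44 ± 0.44. Of the 12 cytosolic aminoacyl-tRNA synthetases, which charge tRNAs with amino acids, 9 were higher with all libraries (median 0.18) and 12 without control replicate 2 (median 0.22), with Nars at 0.43 ± 0.11 (adjusted p = 0.182), Gars at 0.32 ± 0.10 (adjusted p = 0.234) and Aars at 0.17 ± 0.09 (adjusted p = 0.400). Of all genes tested, 51.9% and 48.0% were higher in the respective comparisons.

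On the ER side, 4 of the 5 genes of the sensors and their activating proteases were higher with all libraries (median 0.15) and 1 of 5 without control replicate 2 (median -0.18). Ern1, which encodes IRE1, was at -0.32 ± 0.13 (SE, adjusted p = 0.320, limma, without control replicate 2), Atf6 at -0.03 ± 0.09 (adjusted p = 0.899) and Atf6b at 0.10 ± 0.33 (adjusted p = 0.900). Of 14 other chaperones and folding enzymes, 13 were higher with all libraries (median 0.22) and 10 without control replicate 2 (median 0.22). Calr was at 0.42 ± 0.09 (adjusted p = 0.136), the disulfide isomerase gene Pdia4 at 0.43 ± 0.08 (adjusted p = 0.109) and Hsp90b1 at 0.18 ± 0.15 (adjusted p = 0.604). With all libraries Calr was at 0.11 ± 0.37, Pdia4 at 0.058 ± 0.36 and Hsp90b1 at 0.18 ± 0.24.

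Manf, which encodes a secreted ER stress protein, was the 1 gene of that list called. It had 24.8, 46.2 and 23.8 FPKM across the control group, against 43.5, 39.8 and 42.5 after exposure, so control replicate 2 lay above the PM2.5 libraries. Without that library Manf rose by 0.76 ± 0.09 on the log2 scale (SE, limma, adjusted p = 0.0394). With it the value was 0.46 ± 0.30 (adjusted p = 0.875). The call held in 8 of 16 alternatives and was lost on leaving out control replicate 1 (adjusted p = 0.608), control replicate 3 (0.565), PM2.5 replicate 1 (0.170) or PM2.5 replicate 2 (0.226). It was also lost with the replicate block (0.201), with the block and GC content and length correction (0.112), with no filter on low values (0.0940) and at a mean FPKM of at least 0.1 (0.0549). Over all 16 alternatives the log2 fold change stayed between 0.73 and 0.80. Manf and Eif2ak2 were the only genes called across all the pathway lists in this comparison, where 1.03% of all genes were called. The share within the list of 14 alone is not read as a result, since every list was searched.

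The downstream lists held no call. Of 11 genes of ER-associated degradation 10 were tested and 8 were higher in both comparisons (medians 0.28 and 0.13), with Herpud1 at 0.40 ± 0.10 (SE, adjusted p = 0.160, limma, without control replicate 2), Sel1l at 0.18 ± 0.09 (adjusted p = 0.376) and Syvn1 at 0.13 ± 0.19 (adjusted p = 0.768). Of 12 genes of ER translocation and the signal peptidase, 5 were higher with all libraries (median -0.040) and 4 without control replicate 2 (median -0.031). Sec61b was at -0.21 ± 0.12 (adjusted p = 0.472) and Sec61g at 0.40 ± 0.22 (adjusted p = 0.440). Sec61a1, which encodes the channel itself, had 69.1, 9.28 and 68.5 FPKM against 70.1, 70.1 and 65.9. Control replicate 2 was the single low library, and the log2 fold change was 0.92 with it and -0.0031 without it. Of 7 mitochondrial stress genes, 5 were higher with all libraries (median 0.47) and 7 without control replicate 2 (median 0.25), with the chaperonin genes Hspd1 at 0.50 ± 0.15 (adjusted p = 0.215) and Hspe1 at 0.25 ± 0.17 (adjusted p = 0.521) and the protease gene Lonp1 at 0.18 ± 0.09 (adjusted p = 0.392).

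**Figure D5:**
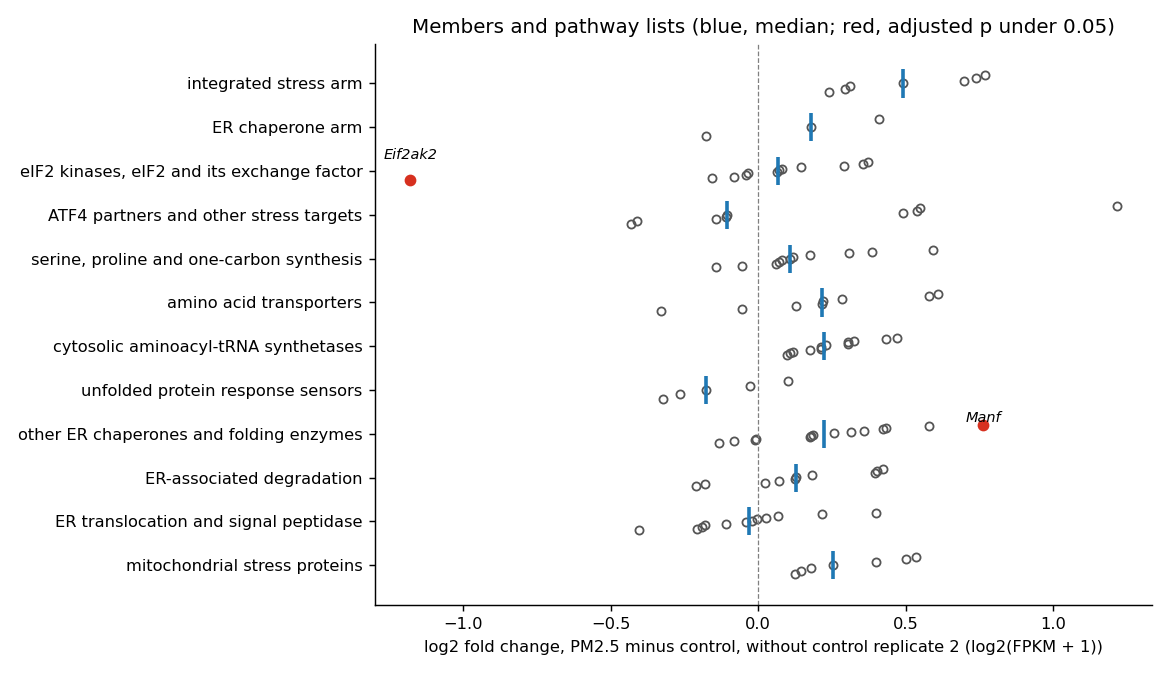
Log2 fold change of the PM2.5 group over the control group without control replicate 2, on the log2(FPKM + 1) scale (horizontal axis), for each tested gene of both arms and of the 10 pathway lists (rows). Open points did not pass the test, red points had an adjusted p under 0.05 (Eif2ak2 at -1.18 and Manf at 0.76), and blue bars are list medians, 0.49 for the integrated stress arm and 0.18 for the ER chaperone arm.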

How the data were processed

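The 6 RNA sequencing libraries of GC-2spd cells were grouped by the treatment in the sample labels. The authors prepared the libraries with a NEBNext Ultra kit, and per the submitters' processing notes reads were mapped with HISAT2 2.0.5 and counted with featureCounts 1.5.0-p3. The authors deposited FPKM for 54886 genes. The notes name the build mm9, but gene IDs and exon lengths matched GENCODE M21 (GRCm38) for 54495 genes, which gave names and positions. FPKM times exon length gave whole reads (within 0.1) for 98.3% to 98.7% of values up to 50 reads, and the scaling followed median-of-ratios size factors, so FPKM were compared as deposited.

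A linear model in limma 3.58.1, run in R 4.3.3 with statmod 1.5.0 and with its trend and robust settings on, was fitted to log2(FPKM + 1) of genes with a mean of at least 1 FPKM, with Benjamini-Hochberg adjustment over all of them. Fold changes of low genes are understated on this scale. Genes with an adjusted p under 0.05 were called. The fit was also run on simulated reads with known changes. These were drawn without a library standing apart and without GC or length differences, so that check does not cover such features of the data. Exact permutation tests, correlations and promoter searches used Python 3.11.15 and scipy 1.17.1. Alternatives were another pseudocount, filters, scalings, voom on recovered reads, the replicate number as a block, and each library left out. A spline of 5 degrees of freedom on GC content and exon length was added after seeing the data. The members and lists were chosen with earlier results of these data known. Named were all members, the first 3 genes of each list, list genes called in either comparison, the 3 genes most like Atf4 and Hspa5, and markers with a mean of at least 1 FPKM. Germ cell markers below it, Mars, Gm4189, Gm24748, Tulp2 and Mir5627 were named after their values or positions were seen.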

Additional observations from a re-analysis of the deposited data

How the results depend on the processing

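None of the 10 genes was called in any alternative with all libraries. Without control replicate 2, the calls were 2 with GC content and length correction and 0 to 7 on leaving out a further library, 7 being without PM2.5 replicate 3. All genes called with all libraries (11) became 0 with no filter on low values, with voom, with the replicate block, and with the block and GC content and length correction, 4 at a mean FPKM of at least 0.1, 6 when scaled to total reads, and 0 to 119 on leaving out a library, 119 being without control replicate 2. Without control replicate 2, the 119 calls became 54 with no filter, 848 with GC content and length correction, 20 with that and the replicate block, 135 with the replicate block, and 0 (without any of 4 libraries) to 5594 (without PM2.5 replicate 3) on leaving out a library. Whether equal replicate numbers pair the samples could not be told. Deviations from the group means correlated at -0.285, 0.180 and 0.253 for replicates 1, 2 and 3. Control replicates 1 and 2 correlated best with another number. In each group 1 library stood apart and shapes these deviations, so they can show neither pairing nor its absence. The block alone changed no call of a member, and added to GC content and length correction without control replicate 2 it took the member calls from 2 to 0.

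The median log2 fold change of the integrated stress arm ranged from -0.28 to 0.49 on leaving out a library, 0.49 being without control replicate 2. Without that library it was 0.58 with the replicate block and ranged from 0.33 to 0.58. The ER chaperone median ranged from 0.18 to 0.66, and from 0.099 to 0.24. On leaving out a library the log2 fold change ranged from -0.89 to 0.74 in Atf4, -0.60 to 0.31 in Ddit3, -0.28 to 0.24 in Atf3, -0.87 to 0.29 in Ppp1r15a and -0.18 to 0.41 in Dnajb9. It reversed in all 5 without control replicate 2, where Dnajb9 was at -0.18, and also without PM2.5 replicate 3 in Dnajb9 (-0.066), with quantile normalization in Atf4 (0.055), and when scaled to total reads in Atf3 (0.031). That scaling moved the median of all genes from 0.020 to 0.13. The causes were not tested. Of 330 values of single members, 8 reversed, 9 passed the threshold newly and 313 kept direction and side. Chac1 and Atf3 rest on 92 to 272 reads per library.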
